A study of Homo sapiens with 4 samples.

Results

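The primary granule genes studied here were MPO, ELANE, PRTN3, AZU1, CTSG, PRSS57, LYZ, SRGN, RNASE2 and RNASE3, which encode proteins packed into the primary (azurophil) granules of myeloid precursors or into the granules of related myeloid cells. They were chosen by gene symbol, with earlier results of these data known, and all 10 were among the 16490 genes of the expression table. Levels were FPKM, fragments per kilobase of transcript scaled to the number of mapped fragments, so that genes of different length can be set side by side. The cells were MV4-11, an established human acute myeloid leukemia line, and both groups were stable lines made with a lentiviral shRNA vector and selected with puromycin. The sh-NC group carried a control hairpin and the sh-CEBPG#3 group carried 1 hairpin against CEBPG, a transcription factor of the C/EBP family, with 2 RNA-seq libraries in each group. The comparison asked what transcripts changed upon knockdown of CEBPG. Whether replicate libraries represent separate infections or cultures is not given in the sources used here, so the p-values below measure only the spread between these libraries, which may be technical. With 1 hairpin, an effect of losing CEBPG and an effect of that hairpin on another transcript cannot be told apart.

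Primary granules are assembled at the promyelocyte stage, and their contents are made mostly during that window and then stored. Myeloperoxidase makes hypochlorous acid, while neutrophil elastase (ELANE), proteinase 3 (PRTN3) and cathepsin G (CTSG) are serine proteases of a common family, and azurocidin (AZU1) belongs to the same family but has lost its catalytic activity. Lysozyme (LYZ), serglycin (SRGN, the proteoglycan that holds granule proteins in place) and the ribonucleases RNASE2 and RNASE3, best known from eosinophils, are made over a wider range of stages and lineages. The specific and gelatinase granules follow at later stages of neutrophil maturation.

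CEBPG itself was lower in the knockdown cells, at 30.4 and 33.6 FPKM in controls against 19.2 and 17.1 FPKM upon knockdown (log2 fold change -0.78, adjusted p = 8.88e-05 by limma with Benjamini-Hochberg adjustment). The deposited FPKM summed to between 364353 and 389766 per library, and r between log2 values was 0.993 and 0.994 within groups and at most 0.964 across them. Of the myeloid leukemia markers checked, FLT3 was the highest (62.8 to 75.0 FPKM over the 4 libraries) and KIT did not exceed 0.187 FPKM. Of the 5 tested, CD33 was called higher (log2 fold change 0.37), and HOXA9 (-0.36) and MEIS1 (-0.87, from 6.65 and 7.34 to 3.42 and 3.29 FPKM) were called lower. Markers of other cells were low, with GNLY at most 0.316 FPKM for T and NK cells and CD79A at most 1.33 FPKM for B cells, while CD34 and the erythroid markers were not analysed here.

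All 10 primary granule genes rose upon CEBPG knockdown. Each was called at an adjusted p under 0.05 (limma, Benjamini-Hochberg over the 12142 genes tested, those averaging 0.5 FPKM or more), whereas 18.5% of all genes tested were called higher and 23.8% lower. Among the 1442 genes at least as abundant in sh-NC cells as RNASE3, the lowest of the 10, 22.8% were called higher. The median log2 fold change of the 10 was 0.82, against -0.04 over all genes tested and -0.05 over those 1442 genes. Fold changes were taken on the log2(FPKM + 1) scale. By the stricter threshold of the study, an unadjusted p under 0.05 with a log2 fold change above 1, 4 of the 10 passed (LYZ, RNASE3, PRTN3 and ELANE), against 2.36% of all genes tested and 1.80% of the 1442 abundant ones. In all 10 genes both sh-CEBPG#3 libraries lay above both sh-NC libraries, which was also the case for 31.5% of all genes tested. In bulk RNA, more cells that express a gene and more RNA per cell cannot be told apart.

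The serine protease family was led by PRTN3, proteinase 3, an elastase-like enzyme and the best known target of the antibodies found in granulomatosis with polyangiitis. Control libraries held 1468 and 1551 FPKM of it, and knockdown libraries 4078 and 3788 FPKM. It went from rank 45 and 42 among the 16490 genes to rank 2 in both knockdown libraries. The change was 2.61-fold in mean FPKM (log2 fold change 1.38, SE 0.07, adjusted p = 6.97e-07, limma with Benjamini-Hochberg adjustment).

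ELANE, the elastase that is mutated in most severe congenital and cyclic neutropenia, stood at 709 and 780 FPKM in sh-NC cells and at 1581 and 1480 FPKM upon knockdown. Each knockdown library was above each control, and the mean rose from 744 ± 50.2 to 1531 ± 71.6 FPKM (SD, n = 2), a 2.06-fold change. The log2 fold change of 1.04 (SE 0.08, adjusted p = 5.51e-06, limma with Benjamini-Hochberg adjustment) lay close to the threshold of 1, and it ranged from 0.97 to 1.11 when 1 library at a time was left out, so that ELANE passes the stricter threshold only with some sets of libraries.

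CTSG, cathepsin G, a protease with chymotrypsin-like specificity, was measured at 941 and 992 FPKM in the controls and at 1628 and 1587 FPKM after knockdown (1.66-fold in mean FPKM, log2 fold change 0.73). AZU1, which encodes an antimicrobial and monocyte-attracting protein, had 915 and 967 FPKM in the controls and 1399 and 1317 FPKM after knockdown (1.44-fold, log2 fold change 0.53). Both groups of libraries were separate for each gene, and the adjusted p (limma, Benjamini-Hochberg) was 2.83e-05 for CTSG and 0.000285 for AZU1.

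PRSS57, which encodes the fourth active serine protease of neutrophil granules, had the smallest change of the early group. Its 2 RefSeq transcripts, NM_001308209 and NM_214710, were of similar level and summed to 579 and 623 FPKM in sh-NC cells and to 766 and 696 FPKM in sh-CEBPG#3 cells. The groups did not overlap, yet the 1.22-fold difference (log2 fold change 0.28, SE 0.08, adjusted p = 0.0139, limma with Benjamini-Hochberg adjustment) lost its call when either knockdown library was left out, with adjusted p up to 0.275, and also without a filter on low values, after quantile normalization and with the more abundant transcript alone.

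MPO, myeloperoxidase, the heme enzyme used clinically to mark myeloid blasts, was far less abundant than the proteases in these cells. It was measured at 70.7 and 80.4 FPKM in the controls and at 118 and 115 FPKM after knockdown. The rise was 1.55-fold (log2 fold change 0.62, SE 0.08, adjusted p = 0.000190, limma with Benjamini-Hochberg adjustment). The ratio of MPO to ELANE was 0.0997 and 0.103 in controls against 0.0749 and 0.0778 after knockdown, so the peroxidase made up a smaller share beside elastase after knockdown although its own level was higher.

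LYZ, lysozyme, which cleaves bacterial peptidoglycan, had the largest log2 fold change of the 10 genes. Its level was 567 and 610 FPKM in sh-NC cells, similar to PRSS57 and RNASE2, and 3126 and 2982 FPKM in sh-CEBPG#3 cells, similar to SRGN. The mean rose from 589 ± 30.9 to 3054 ± 102 FPKM (SD, n = 2), or 5.19-fold, with a log2 fold change of 2.37 (SE 0.07, adjusted p = 1.40e-08, limma with Benjamini-Hochberg adjustment). Its rank among all genes went from 92 and 93 to 11 in both knockdown libraries. Of the 31-base words of its canonical transcript, 17.3% also occur in transcripts of other genes, so part of its reads could be placed elsewhere.

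SRGN was the most abundant of the 10 genes in sh-NC cells and changed least. It was measured at 2823 and 2915 FPKM in the controls and at 3489 and 3357 FPKM after knockdown, without overlap. This difference of 1.19-fold (log2 fold change 0.25, SE 0.07, adjusted p = 0.0151, limma with Benjamini-Hochberg adjustment) lost its call when either knockdown library was left out, with adjusted p of 0.229 and 0.328, and without the filter on low values (adjusted p = 0.138).

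**Figure D1:**
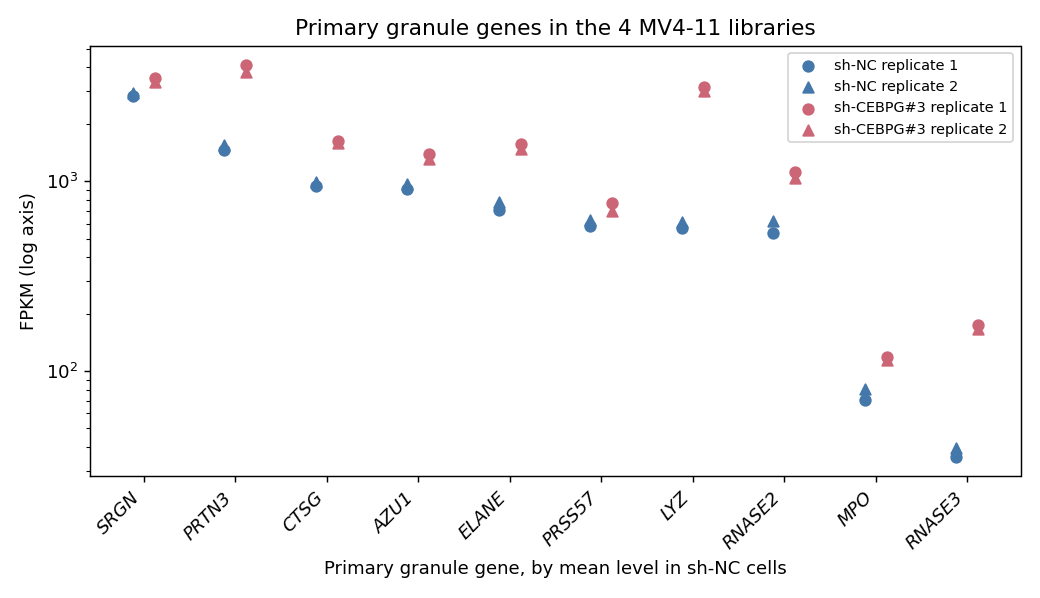
FPKM of the 10 primary granule genes (log axis) in each of the 4 libraries, sh-NC in blue and sh-CEBPG#3 in red, with circles for replicate 1 and triangles for replicate 2, ordered by mean sh-NC level. The red symbols lie above the blue ones for every gene, with a wide gap for LYZ (567 and 610 against 3126 and 2982 FPKM) and RNASE3 and a narrow one for SRGN and PRSS57.

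RNASE2 (eosinophil-derived neurotoxin) and RNASE3 (eosinophil cationic protein) are neighbouring ribonuclease genes that arose by duplication, and they differed widely in level. RNASE2 stood at 536 and 618 FPKM in sh-NC cells and at 1126 and 1043 FPKM in sh-CEBPG#3 cells (1.88-fold, log2 fold change 0.91, SE 0.08, adjusted p = 2.43e-05, limma with Benjamini-Hochberg adjustment). RNASE3 had 35.6 and 39.5 FPKM in the controls and 176 and 167 FPKM after knockdown, a 4.56-fold change (log2 fold change 2.16, SE 0.08, adjusted p = 3.90e-08 by the same test). RNASE3 was thus the least abundant of the 10 genes in sh-NC cells and passed MPO in the knockdown cells. The ratio of RNASE3 to RNASE2 was 0.0663 and 0.0639 in controls against 0.156 and 0.160 after knockdown. No test was made of these ratios, since with 2 libraries against 2 an exact two-sided permutation test cannot go below p = 0.333.

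The values of this pair carry an uncertainty of read assignment, because 637 of 717 aligned bases (88.8%) of their canonical transcripts are identical. Of the 31-base words of the RNASE2 transcript, 29.9% also occur in another gene, mainly the pseudogene RNASE2CP and RNASE3, and for RNASE3 the share was 17.2%. The corresponding share was 0.785% for MPO, all of it with EPX, and 0 for ELANE, PRTN3, AZU1, CTSG, PRSS57 and SRGN.

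The bases upstream of RNASE2 and RNASE3 are shown because the pair shared nearly the same proximal sequence while their changes differed in size. RefSeq (GRCh38.p14) promoter windows were at hand for 6 of the 10 genes (RNASE3, RNASE2, CTSG, PRSS57, AZU1 and PRTN3), and the 250 bases before the start of transcription were searched on both strands. Both ribonuclease genes lie on the plus strand of chromosome 14, with windows at chr14:20891135-20891384 for RNASE3 and chr14:20955237-20955486 for RNASE2. Capitals mark TTGCNNAA, a core of C/EBP binding sites.

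RNASE3: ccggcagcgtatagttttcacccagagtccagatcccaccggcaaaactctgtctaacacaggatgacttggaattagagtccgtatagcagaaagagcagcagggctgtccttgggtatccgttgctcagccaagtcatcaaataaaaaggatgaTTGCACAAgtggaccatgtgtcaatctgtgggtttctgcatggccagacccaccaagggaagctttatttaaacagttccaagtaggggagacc
RNASE2: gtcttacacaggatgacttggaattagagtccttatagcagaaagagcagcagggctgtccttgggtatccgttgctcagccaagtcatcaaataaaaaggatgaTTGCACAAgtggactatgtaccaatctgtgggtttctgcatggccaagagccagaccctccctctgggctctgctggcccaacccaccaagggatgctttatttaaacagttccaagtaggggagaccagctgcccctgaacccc

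Where the windows could be aligned, 192 of 199 bases (96.5%) were identical, and a stretch of 34 bases, from 99 to 66 before the start, was present in RNASE2 and not in RNASE3. Both held the same C/EBP core, TTGCACAA, which lay 94 to 87 bases before the RNASE3 start and 145 to 138 bases before the RNASE2 start. The annotated starts do not align, since the RNASE2 window runs on past the aligned end of the RNASE3 window. These distances therefore differ by the extra stretch and by the placing of the starts.

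Next come the windows of PRTN3 and AZU1, chosen because these genes are neighbours on chromosome 19 and had log2 fold changes of 1.38 and 0.53. Both are on the plus strand, at chr19:840749-840998 for PRTN3 and chr19:827587-827836 for AZU1. Capitals mark TTGCNNAA on either strand (here TTGGGCAA, a match on the minus strand) and GAGGAAG, a core of binding sites of PU.1, the myeloid ETS factor encoded by SPI1.

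PRTN3: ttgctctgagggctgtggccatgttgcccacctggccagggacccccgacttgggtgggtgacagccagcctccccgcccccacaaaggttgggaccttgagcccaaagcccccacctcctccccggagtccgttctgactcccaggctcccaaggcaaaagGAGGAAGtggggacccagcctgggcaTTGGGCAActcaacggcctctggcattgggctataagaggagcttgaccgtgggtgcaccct
AZU1: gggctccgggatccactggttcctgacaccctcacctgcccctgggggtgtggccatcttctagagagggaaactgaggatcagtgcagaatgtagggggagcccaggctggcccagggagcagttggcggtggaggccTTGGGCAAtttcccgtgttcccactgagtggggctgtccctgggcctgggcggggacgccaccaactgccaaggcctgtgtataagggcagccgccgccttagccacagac

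The C/EBP core lay 62 to 55 bases before the PRTN3 start and 111 to 104 bases before the AZU1 start. PRTN3 also held GAGGAAG at 88 to 82 bases before its start, which overlaps the related letters GGAAGT. In all, TTGCNNAA was found in 4 of the 6 windows and in 9.05% of 35116 RefSeq promoter windows of this length, and GAGGAAG in 2 of the 6 (CTSG and PRTN3) and in 11.2% of all. The TTGCNNAA matches of RNASE2 and RNASE3 lie in duplicated sequence and are not separate cases, so the share among the 6 is no measure of enrichment. GGAAGT occurred in 2 of the 6 and in 19.5% of all windows, and TGTGGT, a RUNX core, in PRSS57 alone and in 11.0% of all. TTGCATCA, a composite site of C/EBP and ATF factors (0.772% of all windows), TAACNG, a MYB core (17.6%), and TATAAA (10.7%) had no match in the 6 windows. These matches are letters in a window and say nothing on binding in MV4-11 cells.

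AZU1, PRTN3 and ELANE lie in a row on chromosome 19 and are followed by CFD, complement factor D, a related serine protease. On the GRCh38 annotation of GENCODE 44, the ELANE gene spans chr19:851014-856247 and its canonical transcript has 5 exons, as have those of PRTN3, AZU1, CTSG and PRSS57. By the gene starts of that annotation, AZU1 starts 15.9 kb before PRTN3 and 25.9 kb before ELANE, and CFD starts 8.44 kb after ELANE. For AZU1 the annotated gene begins at position 825097, upstream of the RefSeq start used for the window shown above, which therefore lies inside the gene as GENCODE draws it. The same holds for part of the PRSS57 window, chr19:695453-695702 on the minus strand, since the annotated gene reaches position 695498. CFD had 359 FPKM in both controls against 466 and 426 FPKM after knockdown (log2 fold change 0.31, adjusted p = 0.00640, limma with Benjamini-Hochberg adjustment). The other tested genes with a start within 100 kb of ELANE were PTBP1, MIR4745, PLPPR3, MED16, R3HDM4 and ARID3A, and none of them was called. PLPPR3, whose start lies at -3.14 kb from that of AZU1, changed by -0.18 on the log2 scale (adjusted p = 0.0644) and PTBP1 one of -0.19 (adjusted p = 0.0577). Around all 10 genes there were 23 such neighbours, a set defined after the values of the 10 genes were known, of which 4 were called higher and 6 lower (background 18.5% and 23.8% of all genes tested), with a median log2 fold change of -0.06 and a range from -0.54 for PALM, beside PRSS57, to 0.61 for FSTL3, also beside PRSS57. LYZ had 1 tested neighbour, YEATS4, which fell (log2 fold change -0.52, adjusted p = 0.000675).

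**Figure D2:**
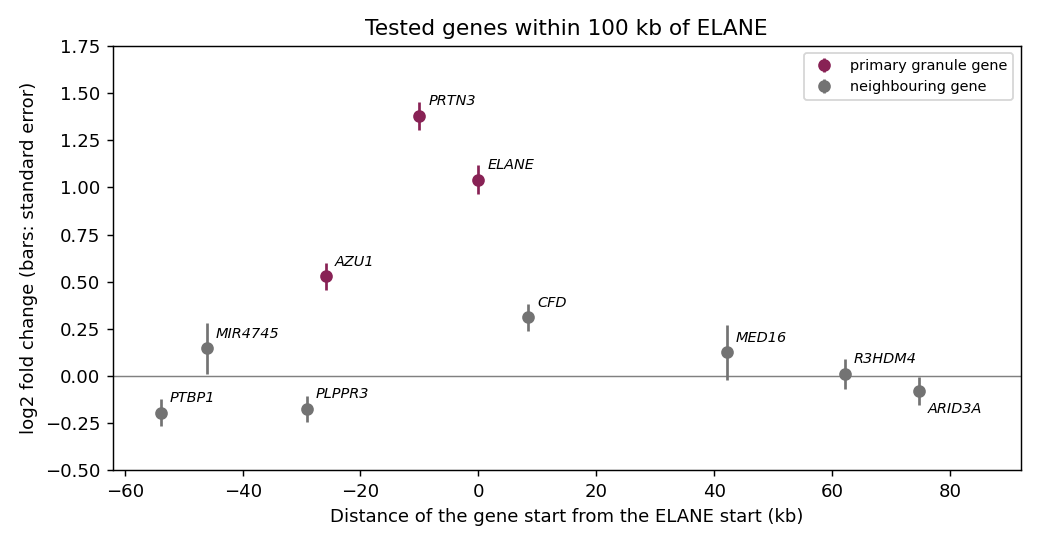
Log2 fold change (sh-CEBPG#3 minus sh-NC, bars are standard errors) of the tested genes within 100 kb of ELANE, placed by the distance in kb of each GENCODE gene start from that of ELANE. PRTN3, ELANE and AZU1 (purple) lie between 0.53 and 1.38, CFD at 0.31, and the other neighbours (grey) between -0.19 and 0.15.

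Early granule genes were then set beside those with broad expression. The 6 early genes (MPO, ELANE, PRTN3, AZU1, CTSG and PRSS57) had a median log2 fold change of 0.68 and a range from 0.28 to 1.38. The 4 broadly expressed genes (LYZ, SRGN, RNASE2 and RNASE3) had a median of 1.54 and a range from 0.25 to 2.37. The median of the early genes was lower by 0.86, but the ranges overlapped from end to end, with SRGN below every early gene and LYZ and RNASE3 above every one. No test was made of the difference between the lists. In summed FPKM, the early genes went from 1.29% of the FPKM total in both controls to 2.46% and 2.39%, and the broad genes from 1.09% and 1.08% to 2.03% and 2.01%.

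The 10 genes together made up 2.37% and 2.36% of the FPKM total in controls and 4.49% and 4.39% after knockdown, that is 8644 and 9176 FPKM against 17487 and 16532 FPKM. Within that sum the make-up shifted. SRGN fell from 32.7% and 31.8% of the sum to 20.0% and 20.3%, while LYZ went from 6.56% and 6.65% to 17.9% and 18.0%. PRTN3 went from 17.0% and 16.9% to 23.3% and 22.9% and became the most abundant of the 10. The shares of AZU1, CTSG and PRSS57 were smaller in both knockdown libraries than in both controls although their levels were higher, and those of ELANE were larger. Within the locus on chromosome 19, the ratio of PRTN3 to AZU1 was 1.60 in both controls and 2.92 and 2.88 after knockdown, and that of ELANE to AZU1 was 0.774 and 0.806 in the controls and 1.13 and 1.12 after knockdown.

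**Figure D3:**
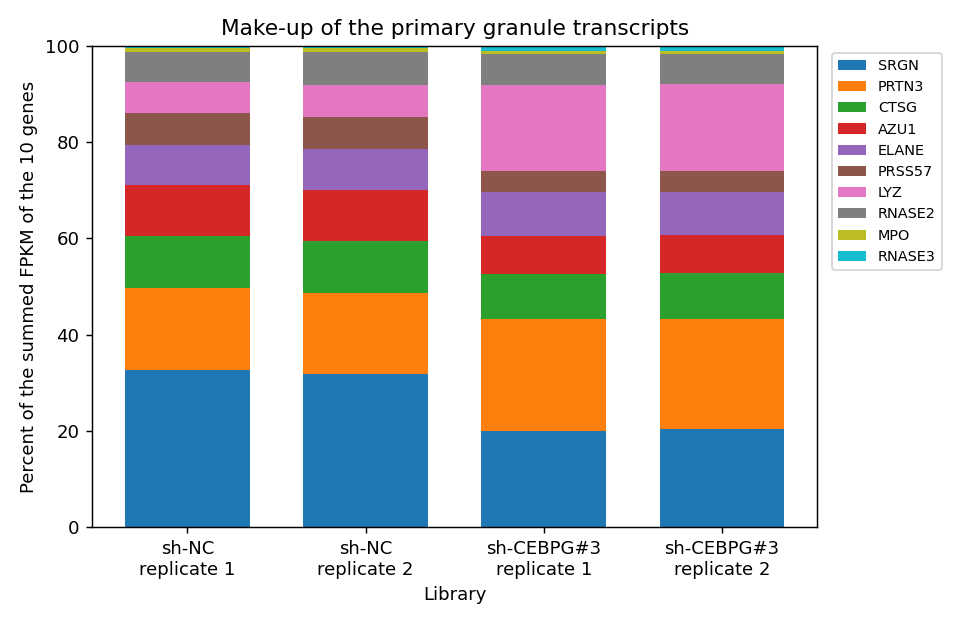
Make-up of the summed FPKM of the 10 primary granule genes, in percent, in each of the 4 libraries. SRGN takes 32.7% and 31.8% of the sh-NC bars and 20.0% and 20.3% of the sh-CEBPG#3 bars, and LYZ (pink) widens from 6.56% and 6.65% to 17.9% and 18.0%.

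In sh-NC cells the order of levels was SRGN, PRTN3, CTSG, AZU1, ELANE, PRSS57, LYZ, RNASE2, MPO and RNASE3, in which the libraries of CTSG and AZU1 overlapped, as did those of PRSS57, LYZ and RNASE2. In sh-CEBPG#3 cells the order was PRTN3, SRGN, LYZ, CTSG, ELANE, AZU1, RNASE2, PRSS57, RNASE3 and MPO, and no neighbours in it overlapped.

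Other constituents of the azurophil granule rose too, as far as they were measured. Of 7 genes listed, 4 were in the table and 3 passed the filter, and all 3 were called higher, as were 18.5% of all genes tested. CD68, a membrane glycoprotein of lysosomes and granules, had 44.7 and 54.9 FPKM in sh-NC cells and 115 and 107 FPKM in sh-CEBPG#3 cells (log2 fold change 1.14). CD63, a granule membrane tetraspanin, had a log2 fold change of 0.56, and BPI, which binds bacterial endotoxin, one of 0.35. DEFA4, a defensin, did not exceed 0.477 FPKM in any library and was not tested, and DEFA1, DEFA1B and DEFA3 were not analysed here.

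For the late granules, 12 of 18 listed genes were in the table and 6 passed the filter. Of these, 5 were called higher and none lower, with a median log2 fold change of 1.11. Of all genes tested, 18.5% were called higher. HP and PTX3 had sh-NC means of 0.492 and 0.468 FPKM, under the filter of 0.5 FPKM, and passed it through their knockdown values. The count and the median therefore only describe the genes that passed. CHI3L1, a chitinase-like protein of the specific granule, was by far the most abundant, at 328 and 356 FPKM in the controls and 1446 and 1372 FPKM after knockdown (log2 fold change 2.04, adjusted p = 3.90e-08, limma with Benjamini-Hochberg adjustment). The remainder were at low levels. HP, haptoglobin, went from 0.576 and 0.407 to 3.99 and 2.88 FPKM (log2 fold change 1.56). PTX3, a soluble pattern recognition protein, had a log2 fold change of 0.68. Of the gelatinase granule genes, CFP, properdin, which stabilises the alternative complement convertase, went from 2.70 and 3.19 to 11.0 and 9.97 FPKM (log2 fold change 1.54). MMP25, a membrane-bound metalloproteinase, had a log2 fold change of 0.66, and MMP9, gelatinase B, was below 1 FPKM in every library and not called (log2 fold change 0.03, adjusted p = 0.891). CAMP, MMP8, TCN1 and PGLYRP1, and FCN1 and ARG1 of the gelatinase granule list, stayed under 1 FPKM in every library and were not tested. LTF, LCN2, CEACAM8, CRISP3, OLFM4 and CD177 were not analysed here. Of those not tested, PGLYRP1 was lower in both knockdown libraries (0.857 and 0.488 against 0.177 and 0.389 FPKM). CAMP, TCN1 and FCN1 were higher in both, and the groups overlapped for MMP8 and ARG1. Of the specific granule genes listed, CHI3L1 alone was therefore abundant, and the others were at low levels or not analysed here.

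**Figure D4:**
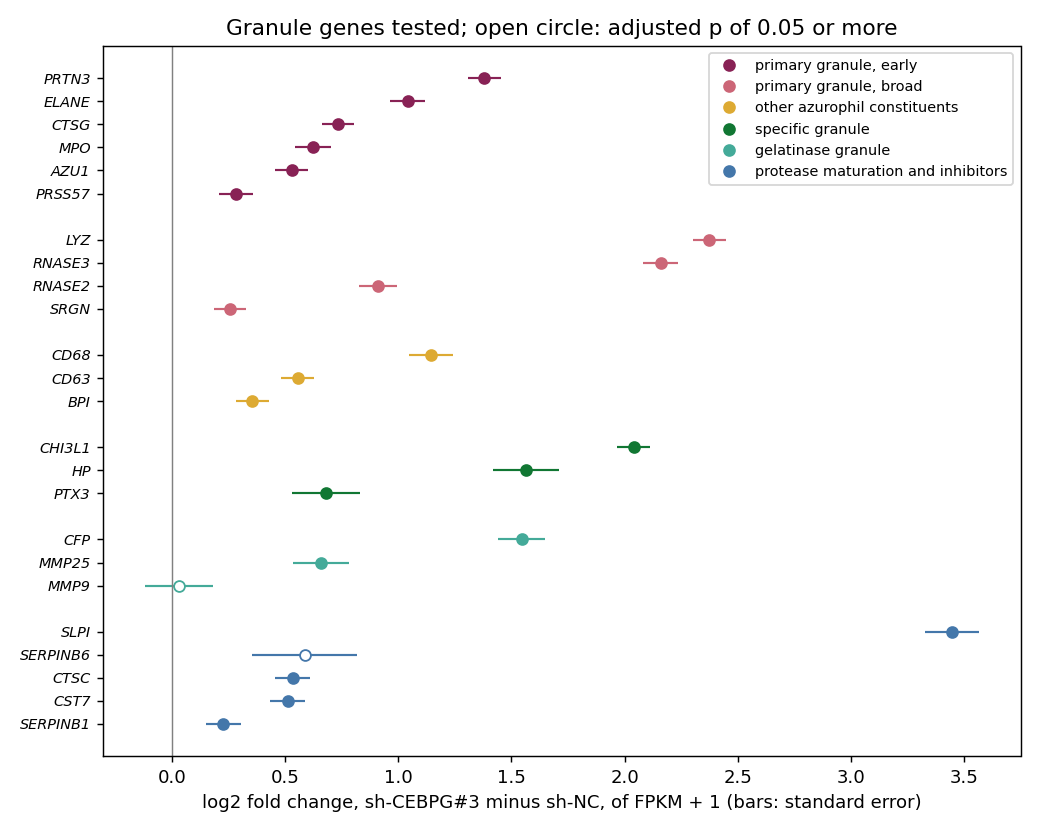
Log2 fold change (sh-CEBPG#3 minus sh-NC) of each tested granule gene and of the genes for protease maturation and inhibitors, coloured by list, with standard errors as bars and open circles for an adjusted p of 0.05 or more. All points lie at or right of zero, with MMP9 at 0.03 and SLPI at 3.45 at the ends.

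Genes that act on granule proteases were followed next. CTSC, dipeptidyl peptidase I, which removes the activation peptide from these proteases, had 69.5 and 77.9 FPKM in sh-NC cells and 108 and 106 FPKM in sh-CEBPG#3 cells (log2 fold change 0.53). CST7, cystatin F, an inhibitor of CTSC, moved by a similar amount (82.4 and 92.5 against 123 and 126 FPKM, log2 fold change 0.51). SLPI, a secreted inhibitor of elastase and cathepsin G, had the largest change, from 11.9 and 16.4 to 165 and 161 FPKM (11.5-fold, log2 fold change 3.45, adjusted p = 3.29e-08, limma with Benjamini-Hochberg adjustment). SERPINB1, an intracellular inhibitor of the same proteases, was called higher by a small margin (log2 fold change 0.23, adjusted p = 0.0382). In this list of 7 genes, 6 were in the table, 5 passed the filter, 4 were called higher and none lower (18.5% and 23.8% of all genes tested).

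Myeloperoxidase needs heme, and the genes of heme synthesis described here did not move in 1 direction. ALAS1, the first and rate-limiting enzyme outside erythroid cells, had 28.5 and 29.7 FPKM in the controls and 71.8 and 69.1 FPKM after knockdown (log2 fold change 1.25). FECH, which inserts the iron, had a log2 fold change of 0.40, whereas ALAD, which acts right after ALAS1, fell (log2 fold change -0.57). UROS, the most abundant next to ALAS1, had 37.6 and 38.0 FPKM against 40.1 and 40.5 FPKM and was not called (adjusted p = 0.341).

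Serglycin carries chondroitin sulfate chains, and of 14 tested genes that build them 5 were called higher and none lower, against 18.5% called higher among all genes, with a median log2 fold change of 0.19. The called genes were CHST12 (0.55), XYLT2 (0.46), CHST7 (0.44), CHPF2 (0.28) and B4GALT7 (0.25), where XYLT2 starts the linker and CHST12 and CHST7 add sulfate. CHST11, the most abundant of them, had 34.9 and 38.2 FPKM in the controls and 42.1 and 40.7 FPKM after knockdown and was not called (adjusted p = 0.0928), nor was CHST13, with 20.8 and 19.5 against 18.3 and 17.1 FPKM (adjusted p = 0.0996).

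Among 13 transcription factors known to act on granule genes, 4 were called higher, 5 lower and 4 were not called, beside 18.5% higher and 23.8% lower among all genes tested. The 5 include CEBPG, the target of the hairpin, whose fall was the aim of the design. CEBPD rose from 21.1 and 24.1 to 39.5 and 38.6 FPKM (log2 fold change 0.76), CEBPB from 15.3 and 14.9 to 26.2 and 24.2 FPKM (0.70), and IRF8, a factor of the monocyte lineage, from 187 and 201 to 264 and 263 FPKM (0.44). SPI1, which encodes PU.1, was also higher (0.33). Besides CEBPG, CBFB fell (-0.40), as did its partner RUNX1 (-0.32) and RARA (-0.26). SPI1, RUNX1 and RARA are named here after their values were seen. CEBPA, the most abundant of the regulators, had 254 and 273 FPKM in the controls and 216 and 213 FPKM after knockdown in the sum of its 4 RefSeq rows (log2 fold change -0.29). The rows of CEBPA were divided unevenly between the control libraries, with NM_001285829 at 86.2 and 4.98 FPKM and NM_001287435 at 49.7 and 194 FPKM. After knockdown the latter row had 132 and 129 FPKM, between its control values, so that the fall of CEBPA rests on the sum over rows.

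Paralogs of the 10 genes were mostly low. Of 10 in the table, 5 passed the filter and 4 were called higher (18.5% of all genes tested), namely CFD, RNASE4 (0.428 and 0.638 against 2.13 and 1.69 FPKM, log2 fold change 0.92), RNASE6 (5.60 and 5.07 against 8.18 and 7.86 FPKM, 0.51) and EPX, eosinophil peroxidase (0.40, adjusted p = 0.0481). LPO, lactoperoxidase, had 7.28 and 7.29 FPKM in the controls and 7.90 and 7.59 FPKM after knockdown and was not called (adjusted p = 0.502).

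Markers of the lineages that also make these proteins were read beside the members. Of 9 monocyte markers, 3 passed the filter and they did not move together, and the summed level of the 9 was 119 and 134 FPKM in the controls and 108 and 112 FPKM after knockdown. CSF1R was higher (4.41 and 4.52 against 8.42 and 8.60 FPKM, log2 fold change 0.80), S100A9 was lower (66.1 and 77.4 against 43.1 and 44.6 FPKM, -0.70), and S100A8 was not called. CD14 had 0.187 and 0 FPKM in the controls and 1.09 and 0.697 FPKM after knockdown, and FCN1 was listed at 0 in both controls and at 0.120 and 0.136 FPKM after knockdown. VCAN, S100A12 and CD163 were each at 0 in 1 control library, did not exceed 0.315 FPKM in any library and were not tested. CD163 (0 and 0.0121 against 0.244 and 0.191 FPKM) was higher in both knockdown libraries. So was VCAN (0.0184 and 0 against 0.0676 and 0.0554 FPKM), while the groups overlapped for S100A12. Of the 4 eosinophil markers in the table, which bear on RNASE2 and RNASE3, the summed level was 27.7 and 29.0 FPKM in the controls and 18.3 and 18.1 FPKM after knockdown. Most of that was PRG2, the eosinophil major basic protein, which fell (26.5 and 28.3 against 16.7 FPKM in both, log2 fold change -0.68). EPX, the other eosinophil marker tested, was called higher, from 1.02 and 0.606 to 1.37 and 1.39 FPKM (log2 fold change 0.40, adjusted p = 0.0481, limma with Benjamini-Hochberg adjustment), so that 1 of the 2 moved with the ribonucleases and 1 against them. EPX was at a low level and shares 31-base words with MPO, and the effect of this on its reads was not tested. PRG3 had 0.0741 and 0.0773 FPKM in the controls and was listed at 0 in both knockdown libraries. CLC, IL5RA and SIGLEC8 were not analysed here. Of the mast cell and basophil markers, none passed the filter, and their summed level was at most 1.35 FPKM. The part of these cell types in the changes above was not tested.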

How the data were processed

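RNA from MV4-11 cells with sh-NC or sh-CEBPG#3 (2 libraries each) was sequenced after Illumina TruSeq preparation. The authors deposited FPKM per RefSeq transcript, 28780 rows, of which 199 held no value. The submitters' processing notes name HISAT2 2.0.5 and hg38. The program that computed FPKM is not given in the sources used here. Read depth is unknown, since low values show no steps of whole reads (of 1027 low transcripts, 0.195% shared the commonest ratio between libraries).

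FPKM were summed over the rows of a gene (16490 genes). Genes averaging 0.5 FPKM or more (12142) were tested on log2(FPKM + 1) with limma 3.58.1 in R 4.3.3 (lmFit, eBayes with trend), with Benjamini-Hochberg adjustment over all of them. The study's own DESeq2 needs counts and was not run. The test was checked on simulated data. Alternatives were pseudocounts of 0.1 and 0.01, no filter or a mean of at least 1 FPKM, equal totals, quantile normalization, the most abundant transcript, a replicate block, no trend, and leaving out each library.

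The members and lists were chosen with earlier results of these data known. Some genes of the heme synthesis and monocyte lists are not reported here. Genes named are the 10 members, CEBPG, up to 5 called genes of each list with the largest change, the 2 most abundant of each list, tested paralogs and locus neighbours, and of each marker list the most abundant and those at 0. Promoter windows are from RefSeq (GRCh38.p14). Transcripts are from GENCODE 44, compared with Biopython 1.88.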

Additional observations from a re-analysis of the deposited data

How the results depend on the processing

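Under the 9 other settings and with each library left out, the 10 genes kept their direction in every case. In 120 of 130 such gene values the call was also unchanged, and the other 10 concerned PRSS57 and SRGN. Without a filter on low values, 8 of the 10 were called, 9 after quantile normalization, 9 with the most abundant transcript, and 8 when either sh-CEBPG#3 library was left out. The cause was not tested. The median of the early minus the broad genes moved from -0.857 to -0.902 under quantile normalization. With a library left out, the genes called ranged from 8 to 10, those past the stricter threshold from 3 to 5, the median of the 10 from 0.752 to 0.892, and the early minus broad difference from -0.884 to -0.829.

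Same-numbered libraries did not deviate together over all genes tested (correlation 0.0606). With 2 libraries per group this single value cannot exclude a pairing, and the labels give only the numbers. With the replicate block, 8 of the 10 genes were called, without PRSS57 (adjusted p = 0.0569, limma) and SRGN (adjusted p = 0.0972), and 2088 genes were called higher and 2673 lower. With the most abundant transcript of each gene, 1329 genes were called higher and 1535 lower, against 2244 and 2884. The split of higher and lower calls was 2416 to 2398 without sh-NC replicate 2 and 1552 to 2575 without sh-CEBPG#3 replicate 1. With 1 library left in a group, that library is assumed to vary like the other group, so calls kept or lost in such fits do not measure stability. Depth is unknown, so no counting error can be given for values near 0 FPKM.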
